A study of Mus musculus with 2 samples.

Results

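The 10 genes described here, Camp, Ngp, Ltf, Lcn2, Mmp8, Cd177, Retnlg, Wfdc21, Prok2 and Hdc, were taken by name from 32285 genes counted in both libraries, and all 10 were found. They encode granule, surface and secreted proteins of neutrophils and, for Hdc, an enzyme. They were followed in the deposited cell cluster numbered 6 and, as background, in the other 9 coarser clusters. The study profiled white blood cells of the colon wall by droplet single-cell RNA sequencing with 5' chemistry while mice recovered from colitis. One group was labelled transgenic for E4BP4 (the product of Nfil3, a transcription factor), with overexpression described as restricted to macrophages; its reference was wild type, and there was 1 library of each. Mice of both groups were 8-week-old C57BL/6 animals that drank 2.0% dextran sulphate sodium, a polymer that injures the colon epithelium, for 7 days and then water for 7 days, and live CD45+ lamina propria cells were sorted on day 14. The promoter that drives the transgene and the number of mice behind each library are not given in the sources used here. Nfil3 was not higher in the cells in which the label places it: in cluster 1, which held macrophage markers, it stood at 73.8 CPM in the library labelled transgenic and 84.4 CPM in the wild type library, a ratio of 0.874 (0.724 to 1.06). In cluster 6 Nfil3 stood at 363.2 CPM in the library labelled transgenic and 257.8 CPM in the wild type library (1.41, 1.15 to 1.71). The median gene there had a ratio of 1.56, so Nfil3 was not higher relative to it. Outside the clustered cells Nfil3 was lower in the library labelled transgenic (0.492, 0.460 to 0.526). The directions given here therefore hold only as far as the submitted labels do.

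Neutrophils fill their granules in waves while they mature in the bone marrow. Genes for primary granule proteins such as myeloperoxidase are read first, those for secondary (specific) granules next, and those for gelatinase granules and secretory vesicles last, and most granule genes are silent by the time a cell enters tissue. Among the members, Camp (cathelicidin, an antimicrobial peptide), Ngp (neutrophilic granule protein, a relative of cystatins), Ltf (lactoferrin, which binds iron), Lcn2 (lipocalin 2, which binds bacterial siderophores) and Mmp8 (neutrophil collagenase) are products of the secondary granule wave. Cd177 encodes a surface glycoprotein of neutrophils that in human cells is also stored in specific granules. Retnlg (resistin-like gamma) and Wfdc21 (a small protein with a whey acidic protein domain) encode secreted proteins found in mouse neutrophils, Prok2 encodes prokineticin 2, a secreted ligand of the receptors Prokr1 and Prokr2, and Hdc encodes histidine decarboxylase, the enzyme that makes histamine.

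In all, 4 members lie on chromosome 9 of mm10, and 3 of them are neighbours on the scale of the chromosome. Camp (ENSMUSG00000038357) spans 109847379 to 109849617 on the minus strand, Ngp (ENSMUSG00000032484) 110419747 to 110423012 and Ltf (ENSMUSG00000032496) 111019271 to 111042767 on the plus strand. Camp and Ngp are 570.1 kb apart, and Ngp and Ltf 596.3 kb. Mmp8 (ENSMUSG00000005800) is far from them on the same chromosome, at 7558456 to 7568485 on the plus strand. Chromosome 2 holds Lcn2 (ENSMUSG00000026822, 32384633 to 32388252) and Hdc (ENSMUSG00000027360, 126593667 to 126619299), both on the minus strand. The remaining loci are Cd177 (ENSMUSG00000052212) at chromosome 7, 24743983 to 24760311, minus strand, Retnlg (ENSMUSG00000022651) at chromosome 16, 48872621 to 48874496, plus strand, Wfdc21 (ENSMUSG00000051748) at chromosome 11, 83746940 to 83752642, plus strand, and Prok2 (ENSMUSG00000030069) at chromosome 6, 99711299 to 99726392, minus strand. All are annotated as protein coding.

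The promoter windows of members that were low together are shown because many granule genes are known targets of C/EBP factors, the basic leucine zipper family that includes C/EBP epsilon. RefSeq promoters of GRCm38.p6, from 250 bases before to 50 after a start site, were at hand for 9 of the 10 members (Wfdc21 was not among them). They were searched on both strands for the C/EBP core TTGCNNAA and the PU.1 core GAGGAAG, and no match of one overlapped a match of the other in the members. The C/EBP core was found in 5 of the 9 (Ngp, Ltf, Lcn2, Mmp8 and Retnlg), against 10.8% of 32851 promoters, and the PU.1 core in 2 of the 9 (Lcn2 and Mmp8), against 13.6%. Below are 60-base stretches, all outside annotated exons and written 5' to 3' on the plus strand, with the C/EBP core or its reverse complement in capitals.
Ngp, chr9:110419644-110419703, match 138 bases before the start site: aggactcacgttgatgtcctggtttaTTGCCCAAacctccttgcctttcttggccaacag
Ltf, chr9:111019191-111019250, match 75 bases before the start site: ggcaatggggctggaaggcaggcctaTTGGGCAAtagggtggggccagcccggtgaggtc
Mmp8, chr9:7558369-7558428, match 19 bases before the start site: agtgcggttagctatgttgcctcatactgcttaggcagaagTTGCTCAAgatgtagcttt
Retnlg, chr16:48872358-48872417, match 246 bases before the start site: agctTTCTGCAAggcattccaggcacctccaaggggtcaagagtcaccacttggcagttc
A match is a description of these letters and not evidence of binding. The promoters of Camp, Cd177, Prok2 and Hdc held neither motif in the window searched.

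Cluster 6 held 167 of 7026 clustered cells (2.38%) in the library labelled transgenic and 648 of 6466 (10.0%) in the wild type library, with medians of 1751 and 3528.5 UMIs (counted molecules) per cell and 330432 and 2533237 UMIs in all. The neutrophil label was borne out by the level of its markers. All 12 listed neutrophil markers were detected in both libraries, but this was so in the B-like cluster 0 too. They summed to 104730 CPM in the library labelled transgenic and 233631 CPM in the wild type library, against 43.9 and 494.5 CPM in cluster 0. Of the 10 leading genes of cluster 6 by fold, 5 (G0s2, S100a9, Stfa2l1, S100a8 and Cxcr2) were on that list. Ngp, Camp and Retnlg were also among the 10, so their presence in the cluster is no finding. S100a8 and S100a9, which encode the alarmin calprotectin, made up 9.01% of UMIs there for the library labelled transgenic and 22.1% for the wild type library. Summed markers of 9 other cell types were higher there in the library labelled transgenic, and those of monocytes were lower (454.0 against 874.4 CPM, with Vcan and Chil3 at 0 in the library labelled transgenic). All 8 macrophage markers were detected and summed to 2115 CPM against 645.0 CPM, all 7 T cell markers to 275.4 CPM against 32.4 CPM, and all 5 plasma cell markers to 2239 CPM against 919.4 CPM, and their part in the results below was not tested. Among deposited cells 67 barcodes occurred in both libraries, 0 of them in cluster 6 of both.

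In neutrophil-like cells, 9 of the 10 genes were at least 1.5-fold lower in the library labelled transgenic by total UMIs, against 10.2% of 6048 genes tested, and Hdc was level with the wild type library on that scale. The gap was widest for the secondary granule genes Camp, Ngp and Ltf, of which hardly a molecule was found. Levels are in CPM, the UMIs of a gene summed over the cells of cluster 6 and scaled to equal totals. Brackets hold exact 95% intervals that cover counting error only, and with 1 library of each genotype no difference between mice could be tested.

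Camp had 0 UMIs in 167 cells of the library labelled transgenic, and 2932 UMIs or 1157 CPM (1116 to 1200) in wild type cells. Against a floor of 3 counts in the first library, 9.08 CPM, it was at least 127-fold lower. Ngp had 3 UMIs, or 9.08 CPM (1.87 to 26.5), in the library labelled transgenic and 9196 UMIs, or 3630 CPM (3556 to 3705), in the wild type library, a ratio of 0.00250 (0.000516 to 0.00731). Ltf followed with 4 UMIs, or 12.1 CPM (3.30 to 31.0), in the library labelled transgenic against 2346 UMIs, or 926.1 CPM (889.0 to 964.3), in wild type cells, a ratio of 0.0131 (0.00356 to 0.0335). These 3 genes therefore stood at or near the counting floor in one library only.

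Lcn2 and Mmp8 stayed well above the floor in both libraries. Lcn2 stood at 841.3 CPM (745.3 to 946.3) in cells from the library labelled transgenic and 9560 CPM (9440 to 9681) in wild type cells, a ratio of 0.0880 (0.0779 to 0.0991). For Mmp8 the levels were 127.1 CPM (91.6 to 171.8) in cells from the library labelled transgenic and 766.6 CPM (732.9 to 801.5) in wild type cells, a ratio of 0.166 (0.119 to 0.225). Cd177, the surface glycoprotein, was scarcer, with 5 UMIs or 15.1 CPM (4.91 to 35.3) in cells from the library labelled transgenic and 890 UMIs or 351.3 CPM (328.6 to 375.2) in wild type cells, a ratio of 0.0431 (0.0140 to 0.101).

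The secreted products were lower in the same comparison, and the enzyme gene Hdc was level by total UMIs. Retnlg, the most abundant member in both libraries by UMIs, stood at 4434 CPM (4209 to 4667) in cells from the library labelled transgenic and 22223 CPM (22040 to 22408) in wild type cells, 5.01-fold lower (ratio interval 0.189 to 0.210). Wfdc21 was near that ratio, at 668.8 CPM (583.5 to 763.1) in cells from the library labelled transgenic and 3612 CPM (3538 to 3686) in wild type cells (0.185, 0.161 to 0.212). Prok2 was close to absent from the library labelled transgenic, with 4 UMIs or 12.1 CPM (3.30 to 31.0), and stood at 612.3 CPM (582.2 to 643.5) in wild type cells, a ratio of 0.0198 (0.00538 to 0.0507). Hdc alone was close to its wild type level by total UMIs, at 1837 CPM (1694 to 1989) in cells from the library labelled transgenic and 1857 CPM (1804 to 1910) in wild type cells, a ratio of 0.989 (0.908 to 1.08).

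**Figure D1:**
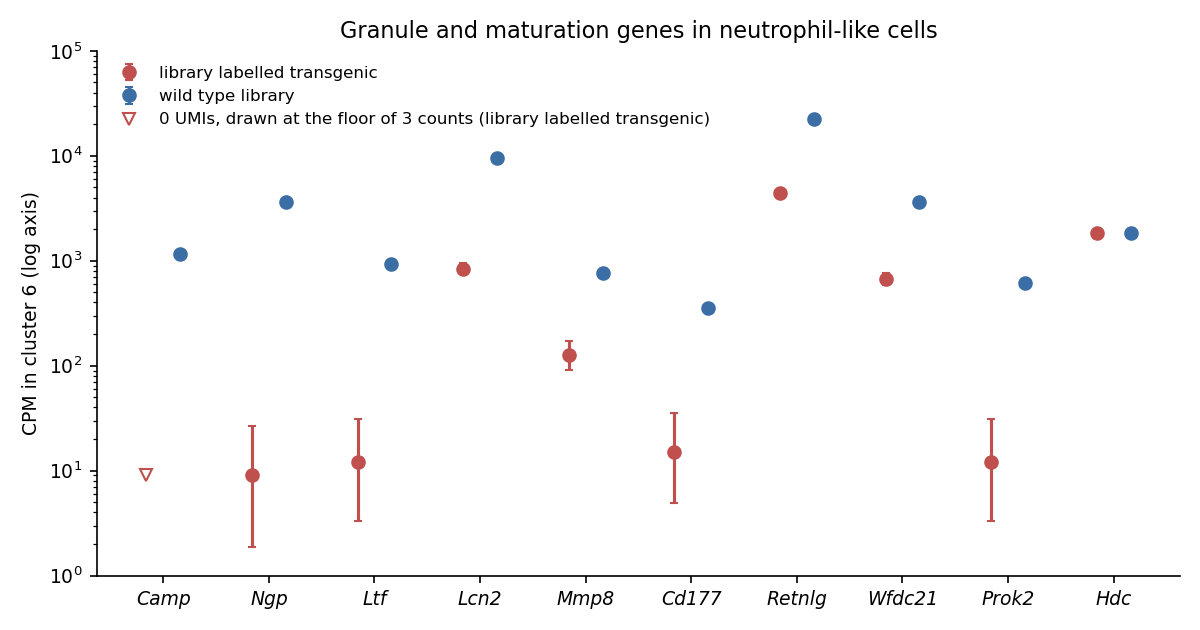
Level of each member in cluster 6, in CPM on a log axis, with exact 95% Poisson intervals that cover counting error only. Points of the library labelled transgenic stand left of those of the wild type library, and the open triangle marks Camp, with 0 UMIs, at the floor of 3 counts (9.08 CPM). Every member but Hdc (1837 and 1857 CPM, and 0.635 of wild type relative to the median gene) lies well below its wild type level in the library labelled transgenic.

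These counts need the background of all genes. Of 6048 genes with at least 20 UMIs over both libraries in cluster 6, 10.2% were at least 1.5-fold lower and 52.1% at least 1.5-fold higher in the library labelled transgenic, and the median gene was higher by 0.64 on the log2 scale. The members' median log2 ratio was -4.02, with Camp at its bound. Relative to the median gene all 10 members were at least 1.5-fold lower, against 25.0% of all genes lower and 22.6% higher, and Hdc then had a ratio of 0.635. The S100a8 and S100a9 share moved the same way as 9 members. Per 1000 UMIs of those genes, Retnlg had 49.2 UMIs in the library labelled transgenic and 100.5 in the wild type library, Lcn2 9.34 and 43.2, and Hdc 20.4 and 8.40. Lower summed counts can mean fewer cells in a state or fewer molecules per cell, and the sums cannot tell these apart.

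Other granule genes were grouped by the wave they belong to. Of 9 other secondary granule genes 8 were at least 1.5-fold lower in the library labelled transgenic and 0 higher, with a median log2 ratio of -1.01, and 8 of 9 were lower relative to the median gene. Chil3, a chitinase-like protein, had 0 UMIs in the library labelled transgenic and 119.2 CPM in the wild type library. Pglyrp1, a peptidoglycan-binding protein, stood at 1162 CPM in the library labelled transgenic and 2832 CPM in the wild type library (0.410, 0.369 to 0.455). Of the gelatinase granule and secretory vesicle genes 4 of 8 tested were lower by total UMIs and 8 of 8 relative to the median gene, against 10.2% and 25.0% of all genes. Among them was Fpr1, a receptor for formyl peptides, at 196.7 CPM in the library labelled transgenic and 791.5 CPM in the wild type library (0.249, 0.191 to 0.318). Primary granule genes gave little to compare: Mpo, Elane, Ctsg and Ms4a3 missed the minimum, and of 4 tested genes Prtn3 was lower (2 against 29 UMIs, 0.529, 0.0611 to 2.09) and Nkg7 higher (23 against 12 UMIs, 69.6 against 4.74 CPM). Nkg7 is also on the list of natural killer and innate lymphoid cell markers, whose 6 genes summed to 96.8 CPM in the library labelled transgenic and 8.29 CPM in the wild type library.

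Of 11 genes of mature neutrophils, 2 were higher and 1 was lower by total UMIs, against 52.1% and 10.2% of all genes. Relative to the median gene 2 were higher and 4 lower, against 22.6% and 25.0% of all genes. Cxcr4, a chemokine receptor of neutrophil homing and ageing, stood at 647.6 CPM in the library labelled transgenic and 100.7 CPM in the wild type library (6.43, 5.34 to 7.75). Csf3r, the receptor for G-CSF, stood at 1353 CPM in the library labelled transgenic and 559.4 CPM in the wild type library (2.42, 2.17 to 2.69). Among transcription factors of granulopoiesis 2 of 6 tested were higher and 1 lower by total UMIs, against the same 52.1% and 10.2%. Relative to the median gene 0 were higher and 2 lower, against 22.6% and 25.0%. Cebpd was at 466.1 CPM in the library labelled transgenic and 222.2 CPM in the wild type library, and Cebpe had only 2 UMIs in the first and 20 in the second. The receptors of member products could mostly not be read in these cells: Prokr1, Prokr2 and 4 others of 9 missed the minimum. Of the 3 tested 0 were past 1.5-fold by total UMIs, while 2 were lower relative to the median gene, against 25.0% of all genes.

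Single cells showed the same contrast as the sums. To compare cells of unequal depth, each was thinned to 500 UMIs, which left out 0 cells, and brackets hold Clopper-Pearson 95% intervals. A Camp UMI was found in 0% (0 to 2.18) of thinned cells of the library labelled transgenic and in 4.78% (3.27 to 6.72) of thinned wild type cells. Ngp was found in 0.599% (0.0152 to 3.29) of cells from the library labelled transgenic and 14.4% (11.7 to 17.3) of wild type cells, and Ltf in 1.20% (0.145 to 4.26) against 6.17% (4.45 to 8.31). Lcn2 was the commonest secondary granule gene, in 24.6% (18.2 to 31.8) of cells from the library labelled transgenic and 77.8% (74.4 to 80.9) of wild type cells.

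Mmp8 was found in 7.19% (3.77 to 12.2) of thinned cells of the library labelled transgenic and 22.7% (19.5 to 26.1) of wild type cells, Cd177 in 0% (0 to 2.18) against 10.2% (7.97 to 12.8), and Prok2 in 0.599% (0.0152 to 3.29) against 15.4% (12.7 to 18.4). Retnlg was found in 54.5% (46.6 to 62.2) of cells from the library labelled transgenic and 87.3% (84.5 to 89.8) of wild type cells, and Wfdc21 in 24.6% (18.2 to 31.8) against 68.1% (64.3 to 71.6). The intervals were apart for these 9 genes. Hdc was found in 55.7% (47.8 to 63.4) of cells from the library labelled transgenic and 56.5% (52.6 to 60.3) of wild type cells, so that its intervals overlapped. With all UMIs the Hdc shares were 90.4% and 90.1%.

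Amounts per cell separated genes made by most cells from genes made by few. Retnlg reached a median of 3 UMIs per cell and a highest value of 63 in the library labelled transgenic, against a median of 52 and a highest value of 548 in the wild type library. Lcn2 had a median of 0 and a highest value of 18 in the library labelled transgenic, against 18 and 336 in the wild type library. Camp in the wild type library was held by few cells: 51 of 648 had a UMI, 29 had 10 or more, the highest had 501, and the 5 highest cells held 53.4% of all Camp UMIs. For Ngp the 5 highest wild type cells held 33.5% of its UMIs and for Ltf 37.6%, against 4.2% for Retnlg. Hdc was spread evenly, with 3.76% in the 5 highest wild type cells and a highest value of 39 UMIs there, and 36 UMIs in the library labelled transgenic.

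Cells of the wild type library carried more members at once. The median number of members with a UMI was 3 in the library labelled transgenic and 6 in the wild type library with all UMIs, and 2 against 4 after thinning. At least 3 members were found in 22.2% of thinned cells of the library labelled transgenic and 76.9% of thinned wild type cells. With all UMIs the highest number in the library labelled transgenic was 6, in 3 cells, whereas 25 wild type cells held all 10.

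**Figure D2:**
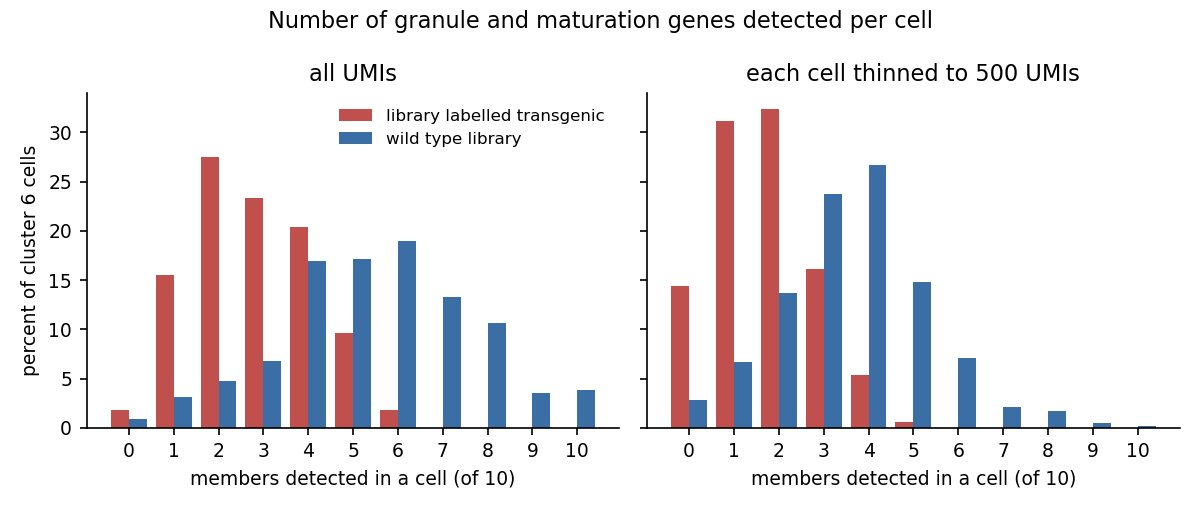
Share of cluster 6 cells, in percent, by the number of the 10 members with at least 1 UMI, with all UMIs on the left and each cell thinned to 500 UMIs on the right. Bars of the library labelled transgenic (167 cells) stand left of those of the wild type library (648 cells), and medians are 3 against 6 with all UMIs and 2 against 4 after thinning.

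In the wild type library cells with a rarely found member nearly always held the common ones. The reverse cannot hold when a member is rare, so this asymmetry alone is no finding. Of 51 cells with Camp, 92.2% (81.1 to 97.8) also had Ngp, 76.5% (62.5 to 87.2) had Ltf and all had Lcn2 and Retnlg. Among 597 cells without Camp, 28.1% had Ngp and 5.86% had Ltf, but 90.1% had Lcn2 and 92.1% had Retnlg. Read in the other direction, 21.9% of 215 cells with Ngp and 8.49% of 601 cells with Retnlg had Camp, against 7.87% of all wild type cells. All 29 cells with 10 or more Camp UMIs had Ngp, Ltf and Cd177, and Ngp reached 29757 CPM in them. Camp cells were also deeper, with a median of 7046 UMIs against 3398 in the others, and these shares are not adjusted for depth.

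Thinning kept the tight core. After it, 100% of 31 Camp cells had Ngp and 80.6% had Ltf, and of 40 cells with Ltf 77.5% had Ngp and 62.5% had Camp. Prok2 stood outside that core: of thinned Camp cells 16.1% had Prok2, close to its 15.4% in all wild type cells. Cd177 was found in 45.2% of thinned Camp cells, against 10.2% in all wild type cells. Without thinning, 39 cells of the wild type library held all of Camp, Ngp and Ltf and 411 held none. In the library labelled transgenic 0 cells then held more than 1 of the 3 and 163 of 167 held none. These unthinned counts are not adjusted for depth.

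Primary granule transcripts were scarce in the cells with Camp: Mpo and Elane had 0 UMIs in all wild type cells of cluster 6, and Prtn3, which encodes proteinase 3, had 3 UMIs in cells with Camp and 26 in the others. Chil3 was found in 51.0% of cells with Camp and 2.68% of cells without it, and Cebpe, which encodes C/EBP epsilon, in 13.7% and 1.17%. Il1b, an inflammatory cytokine of activated neutrophils, ran the other way, at 3453 CPM in Camp cells and 10340 CPM in the others, and the chemokine Cxcl2 stood at 11128 and 22850.5 CPM. Mki67, a proliferation marker, had 3 UMIs in Camp cells and Top2a had 0.

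**Figure D3:**
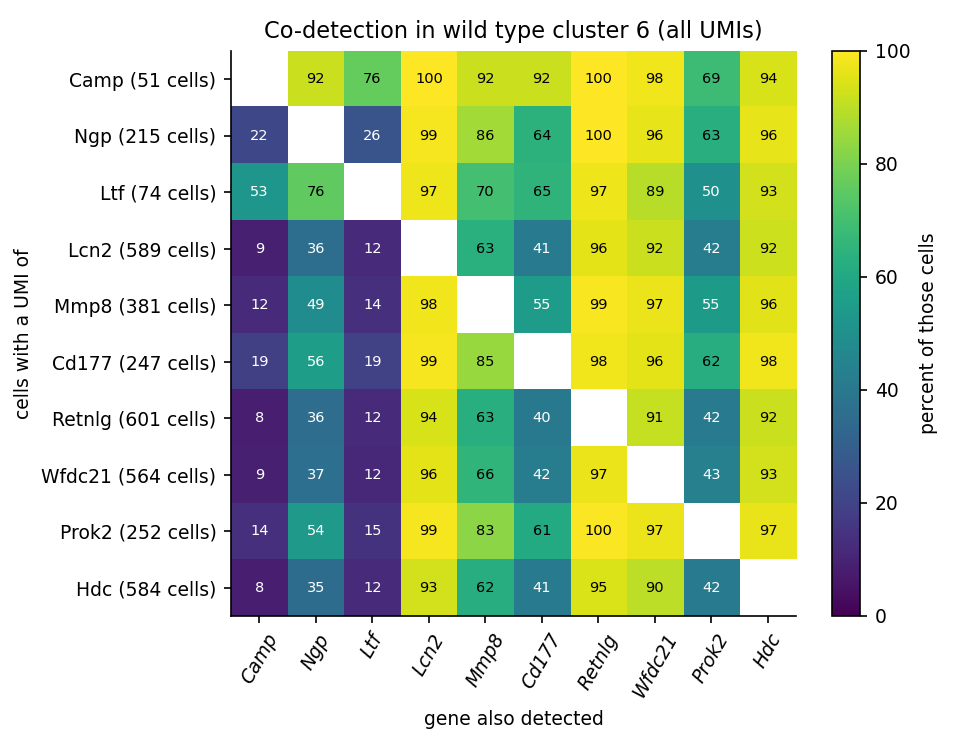
Co-detection of members in 648 wild type cells of cluster 6 with all UMIs. Each field gives the percent of cells with a UMI of the gene at the left that also have the gene below. In the Camp column 8.49% of Retnlg cells have Camp, against 7.87% of all cells. All Camp cells have Retnlg, against 92.7% of all cells.

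Pearson correlations of log2(UMIs per 10000 + 1) over the 648 wild type cells, which share 1 library and differ in depth, gave the same grouping as a description. They were 0.86 for Camp with Ltf, 0.71 for Camp with Ngp, 0.68 for Ngp with Ltf and 0.69 for Retnlg with Wfdc21, and 0.02 for Camp with Hdc. In the library labelled transgenic the pair with the highest value was Retnlg with Wfdc21, at 0.39 over 167 cells. Among 3029 other genes the closest in pattern to Camp and Ltf was Serpinb1a, an inhibitor of neutrophil proteases, at 0.49 and 0.48 in wild type cells. Ifitm6 was closest to Ngp (0.50), Cd177 (0.49) and Prok2 (0.45). S100a9 came first for Retnlg, Wfdc21 and Lcn2, with means of 0.63, 0.55 and 0.41 over both libraries, Pglyrp1 for Mmp8 (0.38), and Actg1 for Hdc (0.35).

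An axis from early to late neutrophil genes, with no member on either list, ordered the cells. Its early genes include Serpinb1a, Ifitm6 and Pglyrp1, named above as closest in pattern to Camp, Ltf, Ngp, Cd177, Prok2 and Mmp8. The early place of these members is therefore not independent of the list. The axis is the log2 ratio of 17 late genes, such as Il1b, Tnf and Icam1, to 16 early genes, such as Chil3, Cebpe and Ly6g. Both are in UMIs per 10000 with 1 added, and the axis was divided into 4 bins of like size over both libraries. It is a range of a score, and 13 cells of the library labelled transgenic and 55 wild type cells lay within 0.1 of a boundary. The median was 3.61 in the library labelled transgenic and 2.28 in the wild type library. Of 15 early genes tested in cluster 6, 13 were at least 1.5-fold lower in the library labelled transgenic by total UMIs and 0 higher. Of 17 late genes 6 were higher and 8 lower, with a median log2 ratio of -0.0977, against 52.1% of all genes higher and 10.2% lower. Median depth also differed, at 1751 and 3528.5 UMIs per cell, and its part in the score was not tested. Bins 1 to 4, from early to late, held 5, 39, 71 and 52 cells of the library labelled transgenic and 199, 164, 133 and 152 wild type cells.

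Along this axis Camp, Ltf and Ngp were the earliest members in the wild type library, while Lcn2, also of the secondary granule wave, came next to last. The mean percentile of thinned cells with a UMI was 8.50 for Camp, 25.2 for Ltf and 27.2 for Ngp. It was 30.8 for Cd177, 33.1 for Mmp8 and 37.7 for Prok2. The last were Wfdc21 at 42.8, Retnlg at 46.1, Lcn2 at 47.4 and Hdc at 50.4. The standard deviation over cells was 10.4 for Camp and lay between 24.1 and 31.7 for the others, so neighbours after Camp overlapped widely.

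Camp stood at 2332, 1041, 16.4 and 9.40 CPM in wild type bins 1 to 4, a ratio of 0.00403 (0.00110 to 0.0103) of the last to the first. A Camp UMI was found in 41, 5, 2 and 3 cells of these bins, so the level of bin 2 rests on 5 cells. Ngp stood at 7981, 1936, 395.1 and 204.5 CPM and Ltf at 2067, 473.5, 65.5 and 54.1 CPM in the same bins. The early end held most of the 3, with 76.1%, 83.0% and 84.3% of their wild type UMIs in bin 1. Mmp8 declined more gradually, through 1293, 686.2, 382.9 and 150.4 CPM (0.116, 0.0891 to 0.15), as did Cd177 (0.109, 0.0737 to 0.157).

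Prok2 stood at 773.9, 751.0, 509.8 and 150.4 CPM in the wild type library (0.194, 0.148 to 0.251), but the ratio moved to 0.0598 on an axis of early genes only and to 0.617 on one of late genes only. Retnlg went through 31505, 24044, 13791 and 8205 CPM (0.260, 0.251 to 0.270), and Wfdc21 had a ratio of 0.336 (0.310 to 0.364). Lcn2 and Hdc were not lower at the late end: Lcn2 stood at 10012, 7465, 11001 and 10156 CPM (1.01, 0.978 to 1.05) and Hdc at 1619, 2083, 1920 and 1965 CPM (1.21, 1.11 to 1.32). Hence 8 of 10 members were at least 1.5-fold lower in bin 4 than in bin 1 of the wild type library, against 28.1% of 3913 genes lower and 26.4% higher. The S100a8 and S100a9 share also differed along the axis, from 29.1% in bin 1 to 11.6% in bin 4, and the median depth from 4589 to 2392.5 UMIs; their part in the order was not tested.

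In the library labelled transgenic bin 1 held too few cells to serve as a start, so bin 4 was set against bin 2, a choice made after seeing the data. Of 5 members with enough UMIs 4 were at least 1.5-fold lower in bin 4, against 14.8% of 1191 genes lower and 22.1% higher. Retnlg stood at 1791 CPM in bin 4 and 7700 CPM in bin 2 (0.233, 0.196 to 0.275), Mmp8 at 58.7 and 192.5 CPM (0.305, 0.0970 to 0.832) and Wfdc21 at 479.7 and 808.5 CPM (0.593, 0.40 to 0.876). Lcn2 was lower too, at 401.3 and 1283 CPM (0.313, 0.212 to 0.454), whereas in the wild type library it was higher in bin 4 than in bin 2 (1.36, 1.31 to 1.42). Hdc did not differ beyond counting error (0.995, 0.783 to 1.27).

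**Figure D4:**
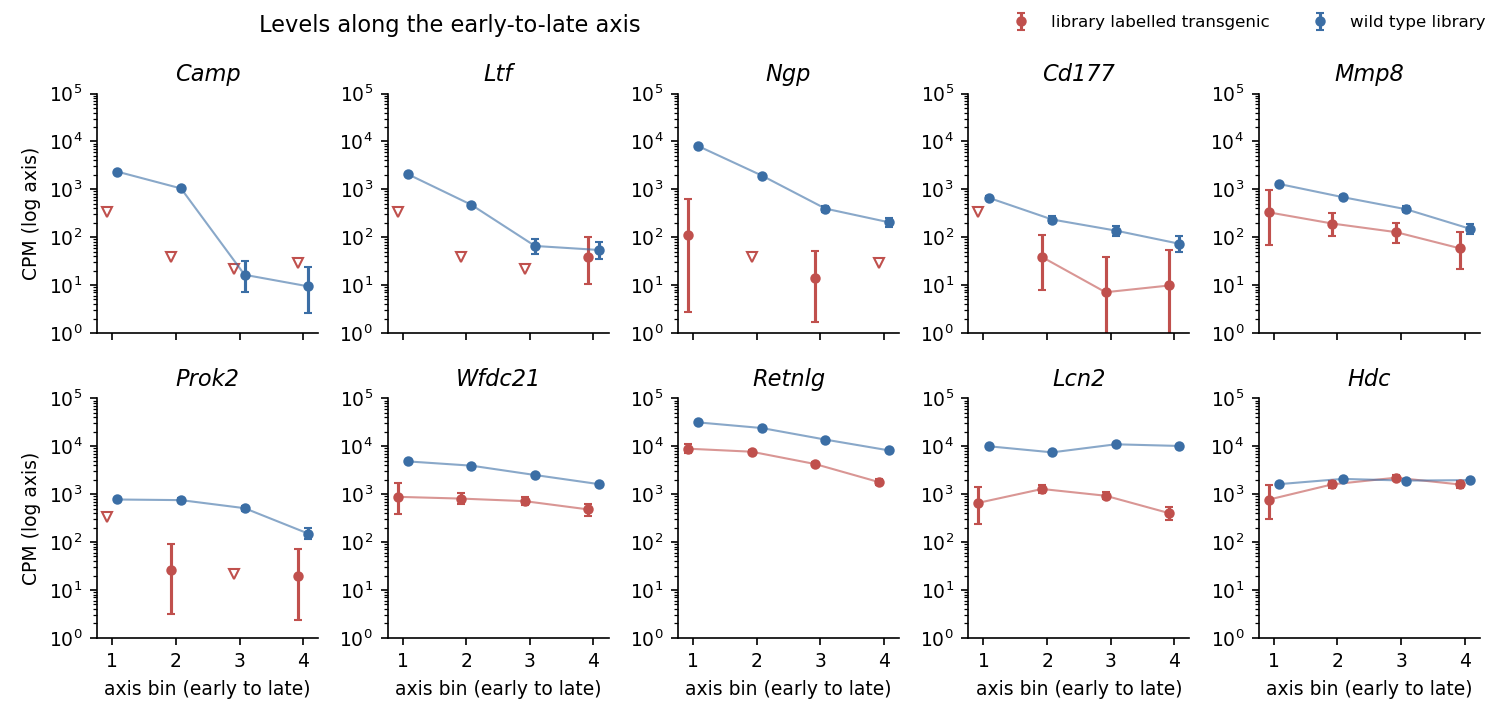
Level of each member, in CPM on a log axis, in 4 bins of the early-to-late axis, for the library labelled transgenic (drawn left, 5, 39, 71 and 52 cells) and the wild type library (199, 164, 133 and 152 cells), with exact 95% Poisson intervals. Open triangles mark 0 UMIs at the floor of 3 counts of that bin. In the wild type library Camp goes through 2332 to 9.40 CPM and Lcn2 stays between 7465 and 11001 CPM.

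The libraries were also compared within bins of the axis, again added after seeing the data. Cells of a bin are not matched in position: the lowest score was -0.239 in the library labelled transgenic and -7.13 in the wild type library. The S100a8 and S100a9 share differed within bins too, at 12.4% and 22.7% in bin 2. The part of either in these counts was not tested. In bin 1 all 10 members were at least 1.5-fold lower in the library labelled transgenic, but over those 5 cells 49.8% of 3073 genes were lower and 37.9% higher. In bin 2 it was 9 of 10, against 19.3% of genes lower and 35.7% higher. It was 8 of 9 tested in bin 3 (15.0% lower, 42.2% higher) and 7 of 9 tested in bin 4 (18.4% lower, 49.2% higher). Hdc was the exception in bins 2 to 4, and Ltf in bin 4 as well. In bin 2 Ngp had 0 UMIs over 39 cells of the library labelled transgenic and 1936 CPM in the wild type library, and Lcn2 stood at 1283 and 7465 CPM (0.172, 0.140 to 0.210). In bin 4 Lcn2 stood at 401.3 CPM in the library labelled transgenic and 10156 CPM in the wild type library (0.0395, 0.0283 to 0.0537).

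Outside cluster 6 most members were rare. In the wild type library between 78.1% (Cd177) and 99.4% (Camp) of a member's UMIs in clustered cells lay in cluster 6. In the library labelled transgenic this share was 97.8% for Retnlg, 88.3% for Lcn2, 48.8% for Mmp8 and 3.73% for Cd177. All 10 members had their highest level in cluster 6 of the wild type library.

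A level of neutrophil transcripts was found in other cells too. Cluster 0 was B-like, and neutrophil genes do not belong there. Its 7 B cell markers summed to 8098 CPM in the library labelled transgenic and 8199 CPM in the wild type library, and 4 were among its 10 leading genes. Retnlg was found in 0.492% of its cells in the library labelled transgenic and 8.84% in the wild type library, at median depths of 2235 and 2445 UMIs. Lcn2 was found in 0.0447% and 5.06% of those cells, and Camp in 0% and 0.290%. Per 1000 UMIs of S100a8 and S100a9, wild type cluster 0 held 89.6 Retnlg, 46.2 Lcn2 and 17.1 Wfdc21 UMIs, against 100.5, 43.2 and 16.3 in wild type cluster 6. Other members differed more on that measure: Cd177 had 13.2 in wild type cluster 0 and 1.59 in wild type cluster 6, Ltf 11.4 and 4.19, and Camp 2.49 and 5.24. The share of cells with Retnlg lay between 8.33% and 13.8% in all wild type clusters other than 6, without adjustment for depth. Its level was uneven, at 39.9 CPM in cluster 0, 128.3 CPM in cluster 3 and 183.8 CPM in cluster 5. A few cells held much of it: in the largest finer part of wild type cluster 3, 5 cells held 74.9% of 243 Retnlg UMIs. Whether free RNA, doublets or misassigned cells carry these UMIs was not tested.

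Some values outside cluster 6 stood above those of the B-like cells. Cluster 3, led by Timp1, Dmkn, F10 and Arg1, was left unnamed: its 8 monocyte markers summed to 4622 CPM in the library labelled transgenic and 5317 CPM in the wild type library, and its 8 macrophage markers to 4968 and 3662 CPM. It held Cd177 at 31.9 CPM in the library labelled transgenic and 34.2 CPM in the wild type library, against 2.77 and 5.86 CPM in cluster 0. In the library labelled transgenic the cluster 3 level (24.8 to 40.3) lay above the 15.1 CPM of cluster 6, but the intervals overlapped, since the 15.1 CPM rest on 5 UMIs (4.91 to 35.3). Mmp8 stood there at 17.6 CPM in the library labelled transgenic and 37.1 CPM in the wild type library, against 0.185 and 2.53 CPM in cluster 0. Both genes were thus measured in cluster 3 at levels several-fold over the B-like cells of the same library. Cd177 was also found in cluster 7, at 19.3 CPM (9 UMIs) in the library labelled transgenic and 47.5 CPM (19 UMIs) in the wild type library.

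Lcn2 and Hdc in cluster 3 came mostly from 1 finer deposited cluster, numbered 11 and led by U90926, Timp1, Arg1 and Nos2. Lcn2 stood in it at 50.6 CPM in 50 cells of the library labelled transgenic and 703.1 CPM in 202 cells of the wild type library. Hdc stood in it at 122.3 CPM in the library labelled transgenic and 219.8 CPM in the wild type library, with a UMI in 30.0% and 40.6% of cells. A UMI of Lcn2 was found in 12.0% of its cells in the library labelled transgenic and 43.6% in the wild type library, at median depths of 4644.5 and 6633 UMIs, deeper than the B-like cells. This finer cluster gave 902 of the 1127 Lcn2 UMIs of wild type cluster 3. The highest wild type Lcn2 level outside cluster 6 was in cluster 5, at 354.7 CPM (193 UMIs). It was 8.16 CPM there in the library labelled transgenic. In the largest finer part of wild type cluster 5, 5 cells held 77.1% of 144 Lcn2 UMIs. Ltf stood in cluster 5 at 66.2 CPM in the wild type library, against 5.07 CPM in wild type cluster 0, and had 0 UMIs in the library labelled transgenic. In cluster 9 the 5 fibroblast markers summed to 14531 CPM in the library labelled transgenic and 12812 CPM in the wild type library. Lcn2 was also measured in it, at 48.2 CPM in 107 cells of the library labelled transgenic and 71.5 CPM in 103 wild type cells. The wild type value there equals that of Retnlg (18 UMIs each) and the B-like cells of that library held both genes too, whereas the library labelled transgenic had 14 Lcn2 UMIs, all in 4 cells, and 0 Retnlg UMIs. Hdc stood at 44.9 CPM in the library labelled transgenic and 53.3 CPM in the wild type library in cluster 5, where 7 of the 10 leading genes were mast cell or basophil markers, cell types in which histamine is made and stored. A UMI of Hdc was found in 2.20% and 3.93% of those cells, against 0.492% and 0.871% in cluster 0. Cluster 5 was mixed: in the wild type library mast cell and basophil markers summed to 3654 CPM, monocyte markers to 2862 and macrophage markers to 2650. In the library labelled transgenic 27 of its 33 Hdc UMIs lay in the finer cluster numbered 9, 92.6% of them in 5 cells. In the wild type library 8 of 29 lay in 14 cells of the finer cluster numbered 11.

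**Figure D5:**
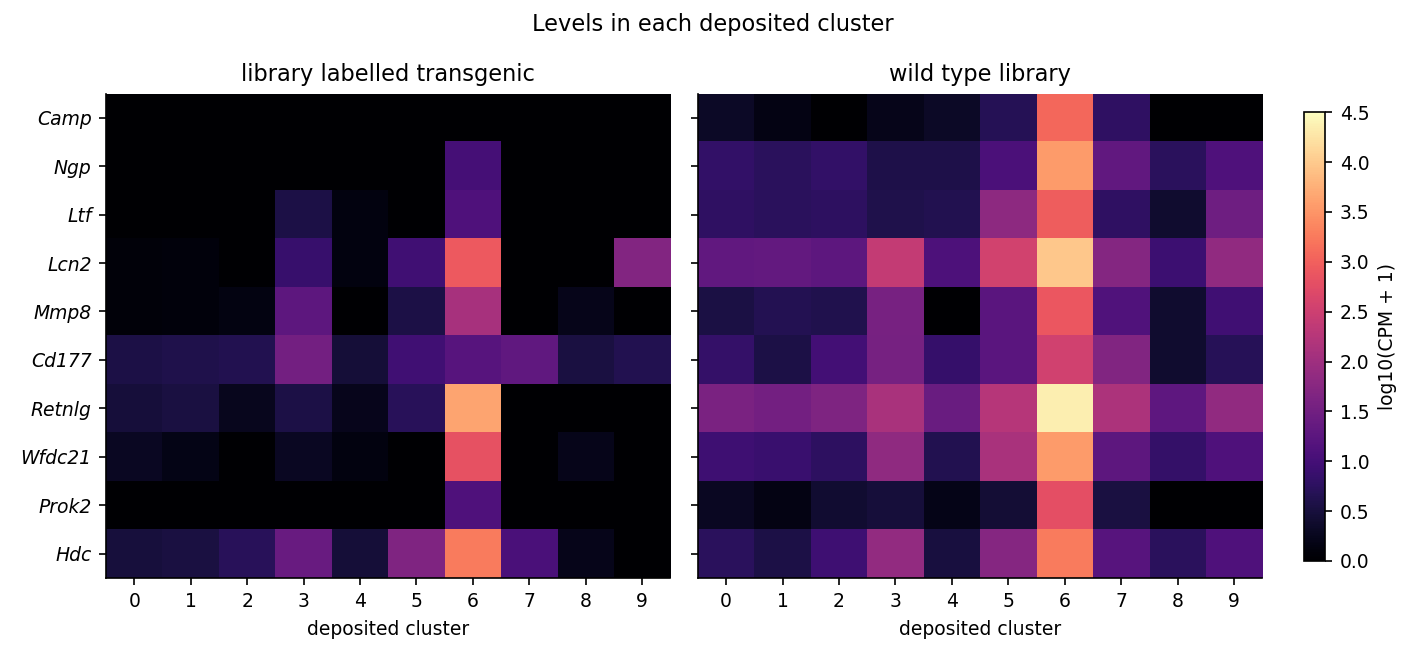
Level of each member in the 10 coarser clusters, as log10(CPM + 1), with the library labelled transgenic on the left and the wild type library on the right. Cluster 6 is brightest for every member of the wild type library, and in the library labelled transgenic Cd177 is brighter in cluster 3 (31.9 CPM) than in cluster 6 (15.1 CPM), with overlapping intervals.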

How the data were processed

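The deposited tables hold UMI counts per gene and barcode, and the deposited metadata give cluster numbers and the percent of mitochondrial and immunoglobulin UMIs per cell, as the authors computed them per the file headers; 0 of their columns were left unmapped. Cell Ranger 5.0.0, Seurat 4.0 and the mm10 build are listed in the submitters' processing notes, without a role for each. No cell filter or doublet step is given in the sources used here. UMI totals in the metadata were up to 58 below the summed counts, which were used. The libraries held 58884332 (labelled transgenic) and 69346746 (wild type) UMIs.

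The members and lists were chosen with earlier results of these data known. Counts were summed per cluster and library (CPM), with exact Poisson intervals for levels, conditional binomial intervals for ratios and Clopper-Pearson intervals for shares. They cover counting error only, since each genotype has 1 library and nothing could be tested across mice. Genes needed 20 UMIs over both libraries, a fold of 1.5 was called, and a floor of 3 counts stood for 0. All members are named, with at most 4 genes per other list (the largest ratios) and the closest genes in pattern. The genes set beside Camp in single cells were chosen after the data were seen. Thinning drew 500 UMIs per cell (seed 1). Scrublet (scanpy 1.11.5) called 2 and 0 barcodes at its automatic threshold and so failed. As an alternative, the top-scoring 8% were removed (21 of 167 and 57 of 648 cluster 6 cells). Ratios, thinning and the axis were tested on simulated data. Python 3.11.15, numpy 2.4.6 and scipy 1.17.1 were used.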

Additional observations from a re-analysis of the deposited data

Results flagged for a closer look

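For Lcn2 the late end of the early-to-late axis stood on opposite sides of bin 2 in the libraries. The ratio of bin 4 to bin 2 was 0.313 (0.212 to 0.454) in the library labelled transgenic and 1.36 (1.31 to 1.42) in the wild type library. Bin 2 was the lowest of the wild type bins, and bin 4 over bin 1 was 1.01 (0.978 to 1.05) there. The difference between these ratios was not tested, since each comes from 1 library.

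Barcodes outside the deposited metadata were not part of the comparisons. The mitochondrial class held 664 barcodes of the library labelled transgenic and 449 wild type barcodes. In it Hdc stood at 20.4 CPM (27 UMIs) in the library labelled transgenic and 4.55 CPM (5 UMIs) in the wild type library (4.48, 1.70 to 14.9). Among barcodes rich in neutrophil markers, 12 in the library labelled transgenic and 64 in the wild type library, Hdc stood at 978.8 CPM in the library labelled transgenic and 605.0 CPM in the wild type library (1.62, 1.24 to 2.09). These values were picked for being higher in the library labelled transgenic. Hdc was lower there in the class of 2200 genes or more (85 against 686 UMIs, 0.168, 0.132 to 0.210). The same held in the class of 5% or more immunoglobulin (0.189, 0.121 to 0.285) and over all barcodes outside the metadata (0.202, 0.168 to 0.242).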

How the results depend on the processing

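Camp, Ngp, Ltf, Lcn2, Mmp8, Cd177, Retnlg, Wfdc21 and Prok2 stayed below a ratio of 1 under all 7 planned scalings and cell choices, and Hdc lay between 0.635 and 1.13. The number of members at least 1.5-fold lower was 10 with median-of-ratios scaling, 9 with a 2-fold limit and 8 of 9 without a count minimum. Their median log2 ratio was -4.66 with median-of-ratios scaling, and -2.21, -2.57, -1.81 and -2.20 within bins 1 to 4 of the axis (added after seeing the data), where members at 0 stand at floors of 21.2 to 329.8 CPM against 9.08 CPM overall and Camp misses the minimum in bins 3 and 4. Cells with 3 or more members made up 55.1% in the library labelled transgenic and 91.2% in the wild type library without thinning, 12.6% and 64.5% at 300 UMIs, and 46.1% and 90.6% at 1000 UMIs. The number of members lower at the late end in the wild type library was 8 under each axis alternative, and Camp, Ngp and Ltf kept the 3 lowest mean percentiles under the 4 planned ones. For Prok2 the ratio of the last to the first bin was 0.0598 with early genes only and 0.617 with late genes only; the cause was not tested. Members most often found in cluster 6 of the library labelled transgenic numbered 8, 7 without thinning and 6 without likely doublets. Of single-gene values 151 kept within their limits and 129 moved. A cutoff of 500 UMIs per cell, 1 of the 7 planned choices, removed no cell and so only repeats the main result. The finer deposited cluster, another of the 7, kept 165 of 167 and 639 of 648 cluster 6 cells. Depth limits Camp, Ngp, Ltf, Cd177 and Prok2, with 0 to 5 UMIs in cluster 6 of the library labelled transgenic. No paired analysis was possible because each genotype has 1 library.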

Other observations

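Camp and Ngp UMIs were also found in barcodes outside the deposited clusters. Barcodes outside the metadata held 24.8% of the 3922 Camp UMIs of the wild type library, and 48835461 of its 69346746 UMIs in all. Of those 973 Camp UMIs 944 were in the 64 barcodes rich in neutrophil markers, of which 52 had 2200 genes or more. Camp was in 10 of the 64. The median depth of the 64 was 14420 UMIs, against 3528.5 in wild type cluster 6, and whether they are doublets was not tested. The library labelled transgenic held 1 Camp UMI in all, in a barcode with 2200 genes or more. That library's 10 Ngp UMIs outside the metadata were likewise in 1 barcode.

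Most UMIs of all genes lay outside the metadata, 38921859 of 58884332 in the library labelled transgenic and 48835461 of 69346746 in the wild type library. For Cd177 the shares were 79.5% and 52.9% of its UMIs, so a majority there is no trait of this gene. The class of 2200 genes or more held 434 and 1095 of them, and barcodes rich in neutrophil markers, of any class, 3 and 208. In the wild type library 259 Ltf UMIs lay in the class of 5% or more mitochondrial UMIs, but in only 7 of its 449 barcodes. The library labelled transgenic had 0 over 664 barcodes. Camp had 9 UMIs and Ngp 33 in this wild type class.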
